A study of Drosophila melanogaster with 4 samples.

Results

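Polycomb repressive complex 2 (PRC2) and the Pho repressive complex (PhoRC) are described here through the transcripts of 9 *Drosophila melanogaster* genes in larvae mutant for *trx*. The genes were chosen by symbol: E(z), Su(z)12, esc and escl for the PRC2 core, Pcl and jing as accessory factors, and pho, phol and Sfmbt for PhoRC. Of the 9 genes 8 have a probe, among the 12057 genes that probes of the array name. No probe is listed for pho, so it was not analysed here.

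Whole larvae of the third instar carrying trxE3 over trxB11, whose parent stocks were balanced over TM6c, were compared with wild-type larvae of an isogenic DrosDel line, and both genotypes carry w1118. Larvae of both genotypes were kept at 21ºC, staged by blue dye in the food, and picked as wandering larvae without the Tb marker. The study set 2 RNA extractions of mutant larvae, taken as 2 biological replicates, against pooled wild-type RNA that served as reference on every array. Each replicate was hybridized on 2 spotted oligonucleotide arrays with Cy3 and Cy5 swapped, which gave 4 arrays. Arrays 1 and 2 are replicate 1 and arrays 3 and 4 are replicate 2, with the mutant in Cy3 on arrays 1 and 3 and in Cy5 on arrays 2 and 4. Nothing in the sources says whether the extractions came from separate cultures, so the p-values measure no more than the spread between extractions. limma moderates the spread of each gene toward that of all genes tested. An SE is therefore not the spread of 1 gene's 2 extractions alone. The spread of the wild-type pool does not enter the p-values. Per the methods, X, Y and chromosome 2 of the mutant stocks had been replaced by those of the isogenic line. The third, where the trx alleles lie, is not named among the chromosomes replaced. The labels describe the mutants as isogenized and name no chromosome. For a gene on the third chromosome, strain background and the trx mutation cannot be told apart.

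PRC2 is the histone methyltransferase that places the repressive methyl mark on lysine K27 of histone H3. E(z) is its catalytic subunit, Su(z)12 and the WD40 protein Esc are needed for its activity, and Escl is a close relative of Esc that can take its place. Pho and Phol are zinc finger proteins related to mammalian YY1 that bind DNA at Polycomb response elements, the sequences through which Polycomb group proteins hold genes silent. Trx, the product of the mutated gene, works in the opposite direction and keeps the same kind of genes active, among them the homeotic genes.

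Each value is a log2 ratio, mutant divided by wild type, so 0 is no difference, 1 is 2-fold higher and -1 is 2-fold lower in the mutant. They hold no signal level, and neither the abundance of a transcript nor the presence of any tissue can be read from them. In RNA of whole larvae, fewer cells of a type and less RNA per cell cannot be told apart. Between pairs of arrays the ratios correlated with Pearson's r of 0.90 and 0.88 within a replicate and of 0.71 to 0.82 across replicates, over 10001 to 10962 spots a pair. The mutated gene itself, trx on 3R, had ratios of 0.22, 0.13 and 0.28 on 3 arrays and no value on the array of replicate 1 with the mutant in Cy3. Its mean was 0.21 (SE 0.0473, n = 2 replicates, limma adjusted p = 0.0859), so the difference did not pass the test. What the alleles do to the transcript was not analysed here, and this value does not check the labels.

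The measured PRC2 transcripts and that of Sfmbt differed by less than 2-fold between mutant and wild-type larvae. For the rest of PhoRC no such statement can be made, since pho has no probe and phol differed by dye. A gene was called at a limma adjusted p under 0.05, either with a change of at least 2-fold, the study's threshold, or at any fold. At 2-fold, 0 of the 8 genes tested were called, against 158 genes higher (1.57%) and 253 genes lower (2.52%) of 10041 tested. At any fold 0 of the 8 were called higher and 1, phol, was called lower, while 652 of all genes (6.49%) were called higher and 821 (8.18%) lower. Without adjustment 3 of the 8 had a limma p under 0.05, namely escl, Pcl and phol, and so did 3833 of the 10041 genes tested (38.2%), so this count does not set the members apart. The median log2 fold change of the 8 genes was -0.065, beside -0.0198 over all genes tested. Their 95% intervals all lay between -0.64 and 0.56, short of a 2-fold change in either direction. For phol alone that interval hides a disagreement between dyes, given further on.

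**Figure D1:**
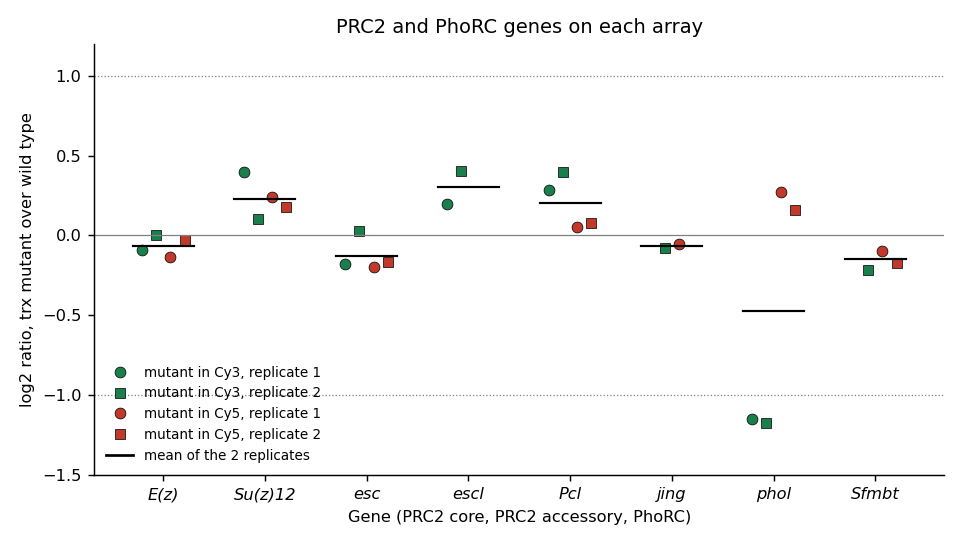
Log2 ratio of trx mutant over wild type (vertical axis) of the 8 genes with a probe on each array, colored by the dye of the mutant RNA and shaped by replicate, with a bar at the mean of the 2 replicates and dotted lines at 2-fold. All genes but phol stay between -0.22 and 0.40 on every array, and phol sits near -1.2 on the 2 arrays with the mutant in Cy3 and above 0 on the 2 with it in Cy5.

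Of the PRC2 core, the catalytic subunit gave the value nearest to 0. E(z), on 3L, had ratios of -0.0882 and -0.14 in replicate 1, with the mutant in Cy3 and in Cy5, and of 0.0013 and -0.0300 in replicate 2. The arrays lay on both sides of 0 and within 0.14 of it. The mean was -0.0635 (SE 0.0555, 95% interval -0.25 to 0.12, n = 2, limma adjusted p = 0.458).

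Su(z)12, whose product is needed for the binding of PRC2 to nucleosomes, stood above 0 on every array. Its ratios were 0.40 and 0.24 in replicate 1, in Cy3 and Cy5, and 0.11 and 0.18 in replicate 2. Replicate 1 was the higher one in both dyes. The mean of 0.23 (SE 0.0709, 95% interval -0.0040 to 0.47, n = 2, limma adjusted p = 0.134) did not pass the test. The same value did pass it in 3 fits on the 4 arrays, as separate samples (limma adjusted p = 0.0344), with a dye term (0.0461) and with the replicate as a random block (0.0250). The first 2 fits take arrays that share RNA as separate samples. In the block fit the estimated correlation was -0.11, so it made no allowance for the shared RNA. At any fold these fits called 3606, 3407 and 3537 of all genes, beside 1473 in the main test. The gene lies on 3L.

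The paralogs esc and escl, which stand for each other in the complex, lay on opposite sides of 0, and neither passed the test. For esc, on 2L, the ratios were -0.18 and -0.20 in replicate 1, in Cy3 and Cy5, and 0.0270 and -0.17 in replicate 2. A single array, that of replicate 2 with the mutant in Cy3, stood above the other 3, and the mean was -0.13 (SE 0.0588, 95% interval -0.32 to 0.0660, n = 2, limma adjusted p = 0.224). escl, also on 2L, had a value only on the arrays with the mutant in Cy3, 0.20 in replicate 1 and 0.40 in replicate 2. Its mean of 0.30 (SE 0.0770, 95% interval 0.0460 to 0.56, n = 2, limma adjusted p = 0.103) therefore rests on 1 dye orientation, and a dye effect on this probe would not cancel in it. The difference between esc and escl was not tested, and in Cy5 escl has no value to set beside esc.

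The accessory factors of PRC2 also stayed below the call. Pcl, on 2R, encodes the Polycomb-like protein that helps PRC2 to reach full methylation at its targets. Its ratios were 0.29 and 0.0548 in replicate 1, in Cy3 and Cy5, and 0.40 and 0.0782 in replicate 2. All 4 arrays were above 0, and those with the mutant in Cy3 were the higher ones in both replicates. The mean was 0.20 (SE 0.0511, 95% interval 0.0345 to 0.37, n = 2, limma adjusted p = 0.101). jing, on 2R, encodes a zinc finger protein related to mammalian AEBP2, and had a value on only 1 array of each replicate. It read -0.0558 in replicate 1 in Cy5 and -0.0772 in replicate 2 in Cy3, close together and near 0. Their mean was -0.0665 (SE 0.0475, 95% interval -0.22 to 0.0908, n = 2, limma adjusted p = 0.378), in which replicate and dye cannot be told apart.

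Sfmbt, on 2L, encodes the MBT domain protein that joins Pho in PhoRC. Its ratios, averaged over 2 probes where both had a value, were -0.0975 in replicate 1 in Cy5, and -0.22 and -0.18 in replicate 2, in Cy3 and Cy5. The array of replicate 1 with the mutant in Cy3 had no value for either probe. The remaining arrays were all below 0, and the mean was -0.15 (SE 0.0556, 95% interval -0.33 to 0.0371, n = 2, limma adjusted p = 0.175). Both probes were measured only in replicate 2, where one read -0.0846 in Cy3 and -0.19 in Cy5 and the other -0.35 and -0.16. They lay further apart in Cy3 than in Cy5, and all were below 0.

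The other DNA-binding gene of PhoRC, phol on 3L, was the only member called. Phol overlaps with Pho in function in the larva. With the mutant in Cy3 its ratios were -1.15 in replicate 1 and -1.18 in replicate 2. With the mutant in Cy5 they were 0.27 and 0.16. The replicates thus repeated each other closely within a dye, while the dyes disagreed in sign. The mean over both dyes was -0.475 (SE 0.0512, 95% interval -0.64 to -0.31, n = 2, limma adjusted p = 0.0371), which is 1.39-fold lower in the mutant.

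That call rests on the agreement of 2 averages, each of an array near -1.2 and an array above 0. Fitted on the Cy3 arrays alone, phol was at -1.16 (limma adjusted p = 0.00778), past the 2-fold threshold. On the Cy5 arrays alone it was at 0.21, above the wild type and not past the test (limma adjusted p = 0.106). With the 4 arrays as separate samples the call was lost (adjusted p = 0.266), and it was lost on leaving out any 1 array, with means from -0.83 to -0.12 and limma adjusted p from 0.0824 to 0.742. Leaving out 1 array also unbalances the dyes, so the dye difference enters those means and their spread. With a dye term on the 4 arrays the call was kept at the same mean (limma adjusted p = 0.00272). The direction of phol in trx mutants therefore depended on the dye.

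The difference between dyes was tested itself, as the ratio with the mutant in Cy3 minus that with it in Cy5 within each replicate. For phol it was -1.38 (SE 0.0796, 95% interval -1.58 to -1.18, n = 2, limma adjusted p = 0.00668). Across the 7262 genes with a value on all 4 arrays, 190 had such a difference (2.62%), and 666 did after each array was centered on its median. Only 33 of them (0.454%) had one at least as large in size as phol, and the median size was 0.11. Of the 7262 genes, 418 (5.76%) had both arrays of one dye above 0 and both of the other below 0. Of those 418 genes 2 were called at any fold, phol and CG13066, the latter singled out after its values were seen. At any fold 1303 of the 7262 genes were called. Opposite signs draw the mean toward 0, so few calls among the 418 follow from how they were chosen.

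**Figure D2:**
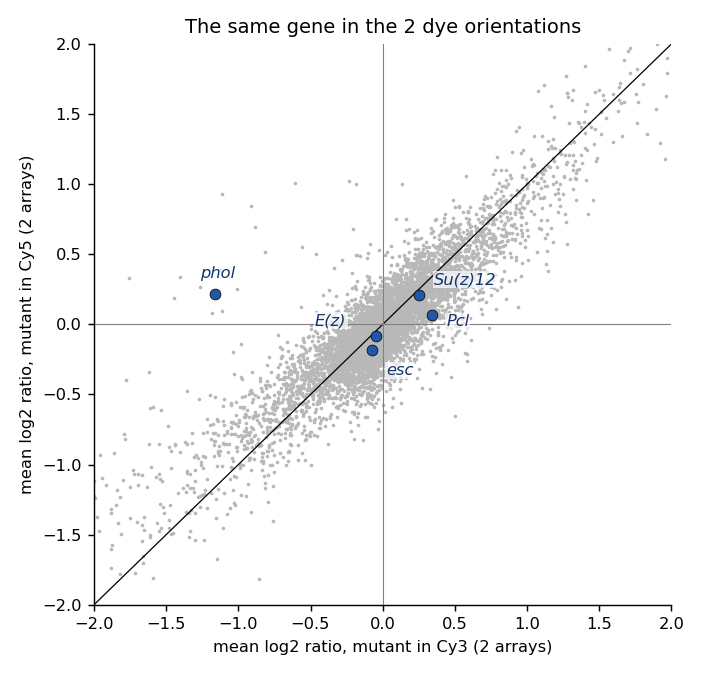
Mean log2 ratio over the 2 arrays with the mutant in Cy3 (horizontal axis) against that over the 2 arrays with it in Cy5 (vertical axis). Each gray point is a gene with a value on all 4 arrays, the line marks equal values, 158 of the 7262 genes lie beyond the axes, and blue points are the 5 PRC2 and PhoRC genes with 4 values, of which phol alone lies far from the line.

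Of the other members with 4 values, E(z), Su(z)12 and esc lay near the line of equal values, and Pcl lay further from it. The difference was 0.0402 (limma adjusted p = 0.812) for E(z), 0.0436 (limma adjusted p = 0.827) for Su(z)12 and 0.11 (limma adjusted p = 0.523) for esc. It was 0.27 (SE 0.0795, 95% interval 0.0732 to 0.48, limma adjusted p = 0.145) for Pcl, the next largest. Of the 5 members with 4 values, Su(z)12 and Pcl were above 0 on every array, as were 28.3% of the 7262 genes. None of the 5 was below 0 on every array, as were 34.4% of the genes. The remaining 3 measured members lack at least 1 array, and escl has no value in Cy5 at all.

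The 3 genes whose values came nearest to phol were picked by Euclidean distance over the 4 arrays, so their likeness to it is set by the choice. They were Argk1 (0.398), which encodes arginine kinase, Eno (0.406), which encodes the glycolytic enzyme enolase, and CG13066 (0.473). Argk1 read -1.16 and -0.11 in replicate 1, in Cy3 and Cy5, and -1.21 and 0.28 in replicate 2. Eno read -0.85 and 0.21 in replicate 1 and -1.37 and -0.0204 in replicate 2. CG13066 read -1.27 and 0.19 in replicate 1 and -1.63 and 0.18 in replicate 2. CG13066 alone had the sign of phol on every array, since Argk1 and Eno each had an array below 0 with the mutant in Cy5. These genes lay between -0.85 and -1.63 with the mutant in Cy3 and within 0.28 of 0 with it in Cy5.

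Genes that work beside PRC2 and PhoRC were read from lists of partners, PRC1 and PR-DUB subunits, other Polycomb group genes, factors that bind Polycomb response elements, the INO80 complex that contains Pho, and opposing regulators. Of 36 such genes 24 had a probe and 23 were tested. At any fold 2 were called higher and 1 lower, beside 6.49% and 8.18% of all genes. Their median was 0.0425, and none reached 2-fold. An unadjusted limma p under 0.05 was found for 9 of the 23 (39.1%), beside 38.2% of all genes tested. These counts do not set the related genes apart. Of the partners, the histone-binding protein Caf1-p55, a core subunit that PRC2 shares with other complexes, read 0.45 and 0.20 in replicate 1, in Cy3 and Cy5, and 0.24 and 0.24 in replicate 2. It was above 0 on all arrays with a mean of 0.28 (SE 0.0540, limma adjusted p = 0.0715). Scm, which links Polycomb complexes, was at -0.0797 (limma adjusted p = 0.315).

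Psc, on 2R, encodes the RING finger subunit that compacts chromatin in PRC1, and was the related gene called lower. It read -0.44 and -0.33 in replicate 1, in Cy3 and Cy5, and -0.53 and -0.31 in replicate 2. Every array was below 0, and the mean fell by 0.40 on the log2 scale (SE 0.0482, limma adjusted p = 0.0418). The call was lost without array 1, 3 or 4, with limma adjusted p from 0.0585 to 0.0664. Asx, a subunit of the histone H2A deubiquitinase PR-DUB, was at 0.0924 (limma adjusted p = 0.267). Sce, on 3R, encodes the ubiquitin ligase of PRC1. Named after its values were seen, Sce lay on the other side of 0 from Psc. It read 0.84 and 0.47 in replicate 1, in Cy3 and Cy5, and 0.38 in replicate 2 in Cy5, with a mean of 0.52 (limma adjusted p = 0.0662).

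The genes called higher were corto, on 3R, and Arp8, on X. For corto, strain background and the trx mutation cannot be told apart. corto, which encodes a chromodomain protein that acts with both Polycomb and Trithorax proteins, read 0.84 and 0.53 in replicate 1, in Cy3 and Cy5, and 0.99 and 0.68 in replicate 2. All arrays were well above 0, and it rose by 0.76 (SE 0.0650, limma adjusted p = 0.0299). Leaving out the array of replicate 1 with the mutant in Cy3 ended that call (0.69, limma adjusted p = 0.0540). Arp8, an actin-related subunit of the INO80 complex, read 0.46 and 0.54 in replicate 1 and 0.46 and 0.40 in replicate 2. It rose by 0.47 (SE 0.0508, limma adjusted p = 0.0376), and the 4 arrays differed little from each other. Over all alternatives with a test its limma adjusted p was at most 0.0481.

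Other genes of these lists were not called. Of the INO80 complex, the ATPase gene pont was at -0.0280 (limma adjusted p = 0.777). sxc, which encodes the enzyme that adds N-acetylglucosamine to proteins, was at -0.22 (limma adjusted p = 0.0974). lolal, which encodes a BTB protein that works with GAGA factor, was at 0.28 (limma adjusted p = 0.170). Trl, on 3L, encodes GAGA factor itself and was at 0.36 (limma adjusted p = 0.0648), but its 2 probes disagreed. The probe with the higher ratios lay between 0.45 and 0.91 over the 4 arrays, and the other between -0.14 and 0.13.

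**Figure D3:**
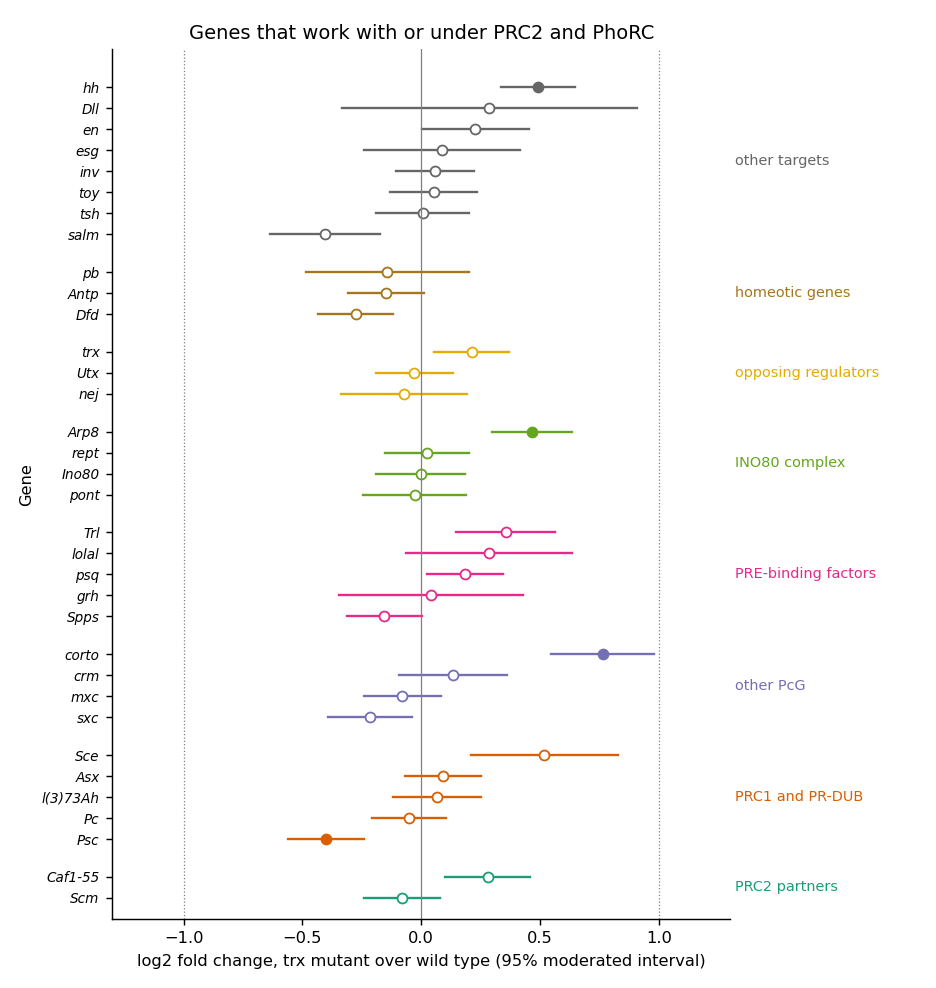
Log2 fold change of trx mutant over wild type with its 95% moderated interval (horizontal axis) for the tested genes of each list (vertical axis, colored by list), with filled points for genes called at any fold. The filled points are Psc below 0 and corto, Arp8 and hh above 0, and no point reaches the dotted lines at 2-fold.

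Genes that PRC2 and PhoRC are known to silence were counted in the same way. Of 20 such target genes 11 were tested, with a median of 0.0527. At any fold 1 was called higher and none lower, beside 6.49% and 8.18% of all genes. An unadjusted limma p under 0.05 was found for 4 of the 11 (36.4%), beside 38.2% of all genes tested. These counts do not set the target genes apart. The called gene, hh on 3R, encodes the Hedgehog signal and is a known target of Trx as well. It read 0.54 and 0.45 in replicate 1, in Cy3 and Cy5, and 0.42 and 0.57 in replicate 2, and rose by 0.49 (SE 0.0471, limma adjusted p = 0.0331). The call was lost without the array of replicate 2 with the mutant in Cy5 (0.46, limma adjusted p = 0.0514). Of the 8 homeotic genes only 3 were tested and none was called by limma, with 1 at an unadjusted p under 0.05, where 38.2% of all genes tested lie. Dfd, which specifies head segments, lay between -0.29 and -0.23 on the 4 arrays (mean -0.28, SE 0.0476, limma adjusted p = 0.0633). Antp, which specifies the thorax, was below 0 on each array with a mean of -0.15 (limma adjusted p = 0.142), averaged over 2 probes that disagreed in sign on array 3 (0.14 and -0.31). salm, a zinc finger regulator of wing and trachea patterning, was at -0.40 (SE 0.0700, limma adjusted p = 0.0638), with 3 arrays near -0.5 and that of replicate 2 in Cy3 at -0.0935.

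E(z) and other PRC2 genes are expressed at high level in dividing cells, so markers of tissues and of proliferation were read beside them. Of 12 proliferation markers 7 were tested and none was called by limma, with 4 at an unadjusted p under 0.05 (38.2% of all genes tested). Their median was 0.0196 and their range -0.20 to 0.33, and the replication genes Mcm2 (0.33, limma adjusted p = 0.0999) and Mcm5 (0.29, limma adjusted p = 0.120) were the highest. PCNA, the sliding clamp of replication, named after its values were seen, split by dye. It read 0.50 and -0.12 in replicate 1, in Cy3 and Cy5, and 0.67 and -0.30 in replicate 2 (dye difference 0.79, limma adjusted p = 0.0336). Among imaginal disc markers 1 of 6 tested was called higher at any fold, beside 6.49% of all genes. It was the wing gene vg, on 2R, at 0.44 (limma adjusted p = 0.0443, and 0.0728 without array 3). In replicate 1 vg read 0.48 in Cy3 and had no value in Cy5. In replicate 2 it read 0.49 in Cy3 and 0.29 in Cy5. The marker ap was at 0.17 (limma adjusted p = 0.149). Only these 2 lay above 0 and the other 4 below it, with a median of -0.0453 for the list. Of 6 neural markers tested none was called by limma and 1 had an unadjusted p under 0.05 (38.2% of all genes), with elav at -0.23 (limma adjusted p = 0.102) and nrv3 at 0.0959 (limma adjusted p = 0.505). Of 2 germline markers tested none was called by limma and 1 had an unadjusted p under 0.05 (again 38.2% of all genes), aub at -0.34 (limma adjusted p = 0.0655).

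Of 3 fat body markers tested 1 was called higher, beside 6.49% of all genes at any fold and 1.57% at 2-fold. Lsp2, on 3L, encodes a serum protein that the fat body makes in the last larval instar, and rose by 3.98 (SE 0.0796, limma adjusted p = 0.0142). It read 3.67 and 4.50 in replicate 1, in Cy3 and Cy5, and 3.87 in replicate 2 in Cy3, with no value on the fourth array. Fbp2 and Fbp1, named after their values were seen, were not called, at 1.08 (limma adjusted p = 0.149) and 0.27 (limma adjusted p = 0.166). The replicates of Fbp2 lay apart, with 1.685 and 1.673 in replicate 1, in Cy3 and Cy5, and 0.482 in replicate 2 in Cy3. Fbp1 had values only with the mutant in Cy5, 0.13 in replicate 1 and 0.42 in replicate 2. The part of tissue make-up and of larval stage in the values of the PRC2 and PhoRC genes was not tested.

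When the ratios were processed in another way, the estimates of most members kept their sign, while their size varied. Over 16 alternatives E(z) stayed between -0.11 and -0.0143, esc between -0.19 and -0.0697, Su(z)12 between 0.14 and 0.32 and Pcl between 0.0665 and 0.34. For those that could be computed, escl stayed between 0.20 and 0.40, jing between -0.0772 and -0.0480 and Sfmbt between -0.20 and -0.0975. None of these 7 genes changed sign, and phol, from -1.16 to 0.21, did.

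**Figure D4:**
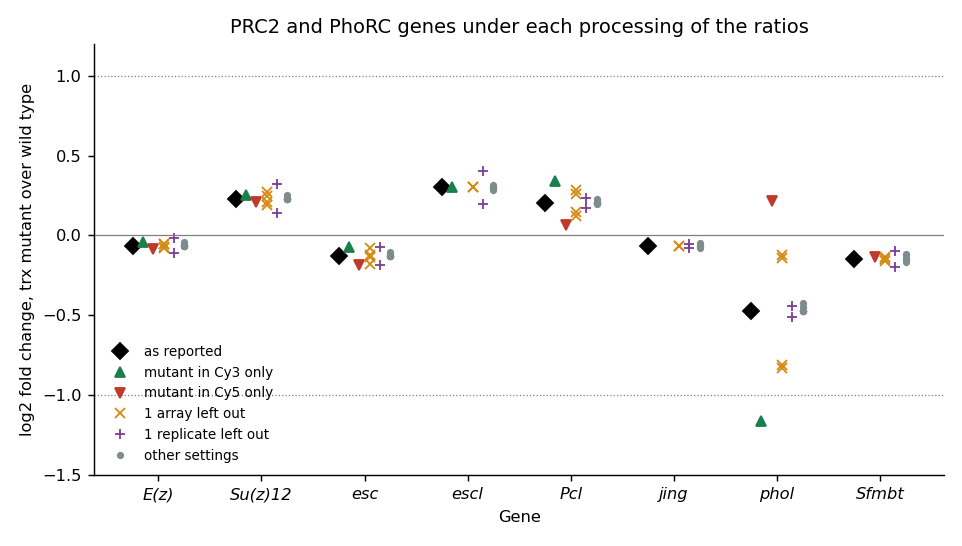
Log2 fold change of trx mutant over wild type (vertical axis, dotted lines at 2-fold) of the 8 genes as reported and under each alternative, including each dye orientation alone and each array or replicate left out. The estimates for phol spread from -1.16 to 0.21, and those of each other gene stay on one side of 0.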

How the data were processed

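Two-color arrays of spotted oligonucleotides were analysed from the log2 ratios that the authors deposited. Per the methods, the authors removed spots that failed quality thresholds, used limma's normexp for background and OLIN within arrays, and scaled arrays to one another. No source used here states the version of these tools. Of 16416 probes 8899 had a value on all 4 arrays. Ratios carry no intensities, so signal and depth are unknown, and precision is limited by the 2 replicates. All array pairs, opposite dyes included, correlated above 0, so no sign was changed. That the ratio is mutant over wild type was checked against the direction of the study's own gene lists, which were used for nothing else.

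Probes naming 1 gene (13163) gave 12057 genes, 12673 probes matched to NCBI symbols and 490 kept under the platform symbol. Probes naming several genes or none (102) or not listed (3151) were left out. Probe values were averaged per gene, and the 2 arrays of a replicate were averaged because they share RNA. limma 3.58.1 (R 4.3.3; lmFit, eBayes, two-sided) tested the mean of 2 replicates against 0 over 10041 genes with Benjamini-Hochberg adjustment, and the dye difference over 7262 genes. The fit was checked on simulated data. Intervals are moderated 95% intervals, and each SE and limma p-value is moderated in the same way. An exact test over 2 replicates was not run.

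Members were named by symbol and not by their values. Earlier results of these data were known when members and lists were chosen. Named genes were all members, trx, each called gene of a list or otherwise up to 2 genes with the largest change and 4 values, and the 3 genes nearest to phol. Chromosome arms are from the NCBI gene table, and no coordinates are given since its assembly differs from that of the study. Alternatives covered the unit of replication, dye orientation, centering, quantile normalization, complete genes, 1 probe a gene, a robust prior and each array or replicate left out.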

Additional observations from a re-analysis of the deposited data

Results flagged for a closer look

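The dye difference of phol stood apart, the log2 ratio with the mutant in Cy3 minus that with it in Cy5 being -1.3789 (limma adjusted p = 0.00668, the same sign in 2 of 2 replicates). Single arrays stood apart from the other 3 in 4 of the 25 named genes with 4 values, by Dixon's test of the gap to the next array as a share of the whole range. These were the highest array of esc (0.856), Caf1-p55 (0.864), Dfd (0.844) and salm (0.882). For esc, Dfd and salm it was the array of replicate 2 with the mutant in Cy3, and for Caf1-p55 that of replicate 1 with the mutant in Cy3. Chance alone marks about 1 in 20 groups in this way, and the cause was not tested.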

How the results depend on the processing

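Of the members' log2 fold changes under alternatives with a test, 83 kept direction and call, 4 gained the call, 6 lost it and 1 reversed. The 16 values from 1 replicate alone, which have no test, kept their direction. phol (adjusted p = 0.0371) turned to 0.21 on the Cy5 arrays alone. It kept -0.475 but lost the call with 4 independent arrays and with the replicate as a random block, and without 1 array it ranged from -0.83 to -0.12. Su(z)12, unchanged at 0.23, gained the call with 4 independent arrays (adjusted p = 0.0344), with a dye term (0.0461) and with the random block (0.0250), and Pcl, unchanged at 0.20, with the dye term (0.0216). Members called numbered 1, but 3 with the dye term, 0 on the Cy5 arrays and 0 without any 1 array (range 0 to 0). The dye differences of 5 members kept direction and call in the 10 values with a test. From 1 replicate alone that of Su(z)12 ranged from -0.0738 to 0.16.

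Genes at least 2-fold higher numbered 158, and 240 with 4 independent arrays. Genes called at any fold numbered 1473, and 3606 with 4 independent arrays, 3407 with the dye term, 3537 with the random block and 969 to 1453 without 1 array. The higher ones numbered 652, and 1703, 1548, 1614 and 402 to 670 in that order, and the lower ones 821, and 1903, 1859 and 1923. Related genes called higher numbered 2, and 6, 4, 5 and 1 to 2 in that order. Related genes called lower numbered 1, 2 with the dye term, 2 on the Cy5 arrays and 0 to 1 without 1 array. Genes with a dye difference numbered 190, 666 after median centering and 294 with a robust prior. Reversed were Scm in Cy3 alone (0.0202), and in Cy5 alone Asx (-0.0549), pont (0.0795) and nrv3 (-0.0162). Without 1 array pont ranged from -0.10 to 0.0441, above 0 without array 1 or array 3 (0.0075). Without replicate 1, with no test, pont (0.0475) and nrv3 (-0.0411) also reversed. Trl reached 0.71 with 1 probe (adjusted p = 0.0267). The causes were not tested.

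The planned fit with a dye term and a random replicate block could not be fitted with so few arrays, so each was fitted alone, an addition made after seeing the data. Mutant samples could not be paired with wild-type samples, because there is only 1 group, measured against a pool. Only the dye difference was taken as a paired difference, within each replicate. The precision is limited by 2 replicates, by values missing on some arrays, and by a reference pool whose spread is not measured.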
